A study of Mus musculus with 20 samples.

Results

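The genes that encode cohesin and the proteins that load, hold, release and stop it were examined as binding sites of the proteins themselves. They are 10 of the 21938 protein-coding genes annotated in mouse build mm10, namely Rad21, Smc1a, Smc3, Stag1, Stag2, Nipbl, Wapl, Pds5a, Pds5b and Ctcf, and they were chosen by name for what they encode. Every peak that overlapped a gene or its flanks of 20 kb on either side was taken, which gave 145 of the 136043 peaks of all lists. Overlapping peaks of different lists were joined into 41 sites.

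Chromatin immunoprecipitation with sequencing (ChIP-seq) located CTCF, MAZ and RAD21 in E14 cells, a mouse embryonic stem cell line, grown with LIF and 2 kinase inhibitors (2i). In all cells, controls included, CTCF bears a degron tag through which auxin triggers its degradation. Untreated cells are called WT and cells given auxin for 2 days ΔCTCF, while cells of clone B2, in which Maz had also been knocked out, are called ΔMAZ when untreated and ΔCTCF/ΔMAZ when given auxin. There was 1 peak list for each of the 3 antibodies in each of the 4 conditions, and a further sample of CTCF and of MAZ in each condition, 8 in all, was not analysed here, so no difference below has a replicate check. The ΔMAZ and ΔCTCF/ΔMAZ cells are the same single clone, and the peak lists hold no measure of gene expression, so that neither the stem cell identity nor the level of any of these genes could be examined.

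Cohesin is a ring of SMC1A, SMC3 and RAD21 to which STAG1 or STAG2 binds. NIPBL loads it on DNA, WAPL opens and releases it, and PDS5A and PDS5B bind it and take part in both holding and releasing it. CTCF, a zinc finger protein, stops the moving ring at its own binding sites, where loops and domain borders form. MAZ is another zinc finger protein, which binds G-rich DNA, often at promoters.

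As a check of the labels, the CTCF lists numbered 26394 (WT) and 26053 (ΔMAZ) peaks without auxin and 2381 and 2570 with it, and those of MAZ 6265 (WT), 6759 (ΔCTCF) and 33 in each knockout condition. RAD21 peaks numbered between 6400 (ΔCTCF/ΔMAZ) and 20872 (ΔMAZ). The libraries were not equally deep: by an index taken from the background of the peaks, RAD21 ΔCTCF was 2.18 times as deep as RAD21 WT and 2.34 times as deep as RAD21 ΔCTCF/ΔMAZ, and MAZ WT was 2.65 times as deep as MAZ ΔCTCF. Fold enrichment below is the read pileup at a summit over the local background, each plus 1, within its own library, so values of different libraries are not on a common scale.

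The places that the results turn on are shown first. The promoter of Pds5b carried CTCF and RAD21 in every condition, those of Smc3, Stag1 and Stag2 carried CTCF without auxin only, and a site upstream of Ctcf carried CTCF in all conditions but ΔCTCF/ΔMAZ. Capitals mark the core of the CTCF motif, which was searched on both strands as CC, 3 bases of any kind, AG, 2 bases of any kind and GGC. The stretches were read from the mm10 genome, with 9 bases on either side of the core.
Pds5b promoter, chr5:150673684-150673713, plus strand: gccgtgcggCCGGTAGGGGGCgctgagaac
Smc3 promoter, chr19:53599882-53599911, plus strand: ctctcagagCCGTCAGGAGGCtcggaacca
Smc3 promoter, chr19:53599900-53599929, plus strand: ggctcggaaCCAGCAGGAGGCgctctgagc
Stag1 promoter, chr9:100643564-100643593, plus strand: gcagcgcggCCAGCAGAGGGCggtcgggac
Stag1 promoter, chr9:100643622-100643651, plus strand: tggaaaatgCCACCAGATGGCgggttagga
Stag2 promoter, chrX:42149263-42149292, plus strand: ggttcgcggCCGACAGATGGCgcctgcgcg
Upstream of Ctcf, chr8:105622557-105622586, plus strand: gagctgtcgCCACCAGGGGGCagcagaact
Among windows of 201 bp, the core was present at 59.6% of all CTCF WT summits, at 55.2% of all RAD21 WT summits and at 7.14% of all start sites of protein-coding genes. At the 13 CTCF WT summits of the 9 genes other than Ctcf it was present at 6 (46.2%). A match is a description of letters, not proof of binding.

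A pair of further places held RAD21 but no CTCF peak in any list, although a core lies within 100 bp of a summit there. They are the promoter of Rad21, where RAD21 was called after auxin only, and a site upstream of Pds5a, where it was called in WT only.
Rad21 promoter, chr15:51991873-51991902, minus strand: gctccgtggCCAATAGGTGGCtggtccaga
Upstream of Pds5a, chr5:65706363-65706392, minus strand: ctgcagaggCCAGAAGAGGGCattagagca
The promoter of Ctcf carried MAZ and neither CTCF nor RAD21. Its MAZ summits have the letters GGGAGGG nearby, in capitals, which were searched on both strands as a G-rich core of MAZ and were present at 46.6% of all MAZ WT summits and 17.8% of all start sites. At the 9 other genes they were present at 1 of the 7 MAZ WT summits (14.3%) and at 2 of the 6 of ΔCTCF (33.3%).
Ctcf promoter, chr8:105636303-105636327, plus strand: cgagggcgcGGGAGGGcgcgtgcgg
Ctcf promoter, chr8:105636416-105636440, minus strand: aaaggtgagGGGAGGGgttggcgca

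The peaks were spread very unevenly over the genes. The region of Ctcf held 79 of the 145 peaks, at 16 sites, and the other 9 regions together held 66 peaks at 25 sites. Of the 79 peaks, 61 had their summit in a coding exon of Ctcf. Smc1a had no peak in any of the 12 lists over its 86.3 kb, and Wapl had MAZ peaks only. Of the 25 sites outside the Ctcf region, 13 were called in 1 list only. The share of such sites over the whole series is not given.

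**Figure D1:**
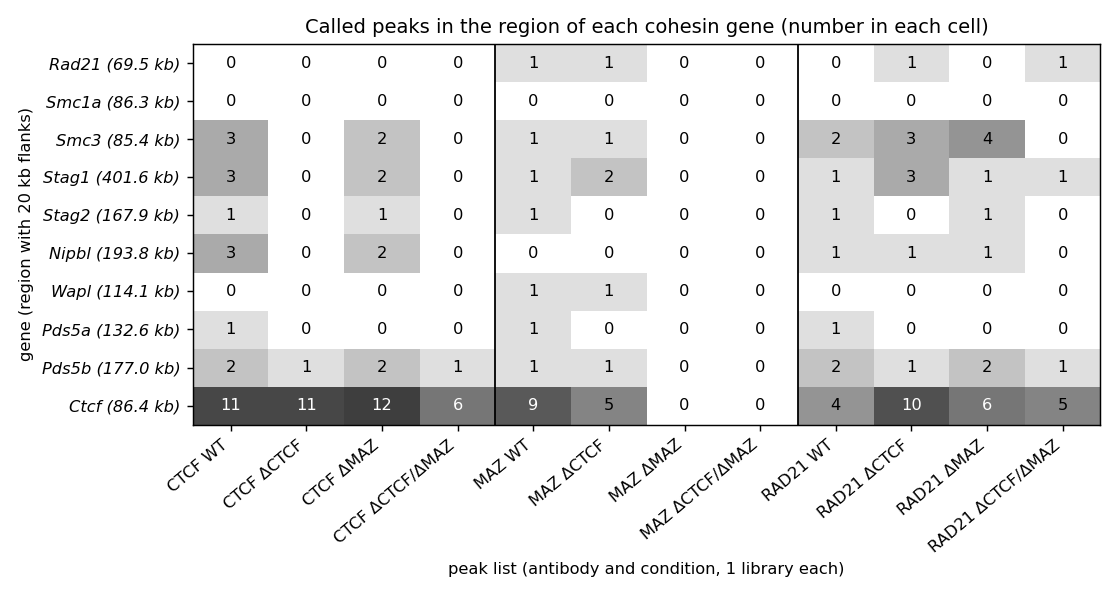
Number of called peaks in the region of each gene (vertical axis, with the length of the region in kb) in each of the 12 peak lists (horizontal axis), darker for more peaks. The Ctcf region held up to 12 peaks of a list, while no other region held more than 4, and the knockout MAZ lists had none.

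Counts over all 10 genes therefore follow Ctcf, and with it the exon peaks, for which binding at the gene could not be told apart from reads of intron-free Ctcf sequence from elsewhere. CTCF had 24 peaks there without auxin in the parental cells and 12 with it, and 21 and 7 in the Maz knockout clone. Outside the Ctcf region these counts were 13 and 1, and 9 and 1. Their density in those 9 regions was 9.10 peaks per Mb in WT and 0.700 in ΔCTCF, against 14.6 and 1.29 over the regions of all protein-coding genes.
RAD21 had 12 peaks over the 10 genes in WT and 19 in ΔCTCF, and 15 in ΔMAZ and 8 in ΔCTCF/ΔMAZ. Without Ctcf these were 8 and 9, and 9 and 3. The 9 genes thus had 5.60 RAD21 peaks per Mb in WT and 6.30 in ΔCTCF, where all protein-coding regions had 10.9 and 9.56. In the Maz knockout clone they had 6.30 in ΔMAZ and 2.10 in ΔCTCF/ΔMAZ, where all such regions had 11.4 and 3.48. The median fold enrichment of RAD21 at the 9 genes was 7.06 (WT), 4.29 (ΔCTCF), 7.33 (ΔMAZ) and 5.49 (ΔCTCF/ΔMAZ), below the median of the whole list in each case (10.0, 4.85, 9.74 and 6.52).
For MAZ there were 16 peaks (WT) and 11 (ΔCTCF), of which 7 and 6 lay outside the Ctcf region. The 9 genes had 4.90 MAZ peaks per Mb (WT) and 4.20 (ΔCTCF), against 4.14 and 4.43 over all protein-coding regions. Of the 11 peaks of ΔCTCF, in the shallower of these libraries, 5 reach a −log10 q of 5, and so do 15 of the 16 of WT. The shares of the whole lists that reach it are not given.

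Promoters, here a summit within 1 kb of an annotated start site, held 12 of the 25 sites at the 9 genes other than Ctcf. CTCF in WT was called at the promoters of 6 of the 10 genes (Smc3, Stag1, Stag2, Nipbl, Pds5a and Pds5b), where 8.99% of all protein-coding genes had such a peak. In ΔMAZ 5 of the 10 had one, all but Pds5a, beside 8.83% of all genes. Pds5b alone of the 10 genes had a CTCF promoter peak in ΔCTCF and in ΔCTCF/ΔMAZ, conditions in which 1.28% and 1.36% of all genes had one.
MAZ was called at 8 of the 10 promoters in WT, all but Smc1a and Nipbl, beside 21.0% of all genes. In ΔCTCF it was called at 6, those of Rad21, Smc3, Stag1, Wapl, Pds5b and Ctcf, beside 21.7% of all genes. With peaks that reach a −log10 q of 5 only, 7 promoters remained in WT and 3 in ΔCTCF. The shares of all genes at that limit are not given, so this fall is not read as particular to the 10 genes.
RAD21 was called at 4 promoters in WT (Smc3, Stag1, Stag2 and Pds5b) and at the same 4 in ΔMAZ, beside 6.98% and 9.05% of all genes. In ΔCTCF it was again called at 4, but with Rad21 in place of Stag2, beside 18.0% of all genes. In ΔCTCF/ΔMAZ Rad21, Stag1 and Pds5b remained, 3 of 10, beside 6.09%.

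For comparison, 16 further genes of the pathway, among them the cohesin acetyltransferases, the meiotic subunits and the proteins that cut or protect the ring, were counted in the same way. CTCF was called at the promoter of 1 of the 16 in WT and of 1 in ΔMAZ, and of 0 in both auxin conditions. MAZ was called at 2 of them in WT and 5 in ΔCTCF. RAD21 was called at 0 of the 16 promoters in WT and 2 in ΔCTCF, and at 1 in ΔMAZ and 0 in ΔCTCF/ΔMAZ. Over the whole regions, 12 of the 16 genes had a RAD21 peak in WT and 9 in ΔCTCF, and 14 in ΔMAZ and 6 in ΔCTCF/ΔMAZ. Of the 10 genes 7 and 6, and 6 and 4 had one, with and without the exon peaks of Ctcf. Among all protein-coding genes such a peak was present in the regions of 59.5% (WT), 52.5% (ΔCTCF), 59.8% (ΔMAZ) and 28.6% (ΔCTCF/ΔMAZ). The regions were not equally long, with a median of 123.3 kb for the 10 genes, 59.0 kb for the 16 and 57.4 kb for all.

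Rad21 (chr15:51962240-51991747, minus strand) encodes the subunit that closes the ring and is itself the target of the RAD21 antibody. No CTCF peak was called in its region in any condition. RAD21 was called at its start site in ΔCTCF, with a fold enrichment of 4.29 and a summit 53 bp upstream, and in ΔCTCF/ΔMAZ, with 4.64 and a summit 204 bp upstream. It was called there in neither WT nor ΔMAZ. Scaled to the depth of RAD21 WT, the ΔCTCF peak would have a −log10 p of 4.47, above the lowest value of 4.03 in the WT list. Scaled to the depth of ΔCTCF/ΔMAZ it would have 4.26, below the lowest value of 4.32 in that list. Both peaks were weak, with a −log10 q of 4.99 and 4.28, so that neither remains when 5 is required, and that of ΔCTCF/ΔMAZ lay at the 11.1 percentile of fold enrichment in its list.
MAZ was called at the same place in ΔCTCF with a fold enrichment of 11.22, higher than 94.2% of that list. In WT the only MAZ peak of the gene was weaker (4.09) and lay in an intron, its summit 585 bp from the other and 326 bases between the peaks. The RAD21 peak of ΔCTCF/ΔMAZ stood where no MAZ peak was called in that condition, the MAZ list of which holds 33 peaks in all.

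Smc1a (chrX:152016428-152062694, plus strand) encodes a core SMC subunit. None of the 12 lists had a peak from 20 kb before it to 20 kb after it.

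Smc3 (chr19:53600398-53645833, plus strand) encodes the partner of SMC1A in the ring. At its promoter, CTCF was called with a fold enrichment of 25.30 in WT and 16.62 in ΔMAZ and not after auxin. The WT summit lay 531 bp upstream of the Smc3 start and 456 bp upstream of the start of AC137853.1. RAD21 at the same site had 5.65 in WT, 4.43 in ΔCTCF and 8.29 in ΔMAZ and was not called in ΔCTCF/ΔMAZ, and MAZ was called at the start site itself, with 4.71 in WT and 3.78 in ΔCTCF. So RAD21 was still called in ΔCTCF where CTCF was not.
Without auxin, the strongest RAD21 site of the region lay 48.5 kb downstream of the start, beyond the end of the gene. RAD21 there had a fold enrichment of 24.85 in WT and 24.56 in ΔMAZ, with pileups of 75 and 78 reads. In ΔCTCF, the deepest of the RAD21 libraries, it had 3.44, with 23 reads, against 4.43, with 20 reads, at the promoter. In ΔCTCF/ΔMAZ no peak was called at the downstream site. CTCF at this site had 21.22 in WT and 13.84 in ΔMAZ and was not called after auxin. The remaining RAD21 peaks of the region were called in 1 list each: 3.71 in ΔCTCF, 2927 bp upstream of the start, and 5.40 and 4.35 in ΔMAZ, downstream of the gene. A CTCF peak in an intron of Smc3 (6.84) was called in WT only.

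Stag1 (chr9:100597798-100959375, plus strand) encodes one form of the subunit that binds CTCF. Its promoter site was called in 8 of the 12 lists. CTCF had a fold enrichment of 23.30 in WT and 21.47 in ΔMAZ and was not called after auxin. RAD21 had 11.79 in WT and 5.0 in ΔCTCF, with 6.56 in ΔMAZ and 5.49 in ΔCTCF/ΔMAZ. A further RAD21 peak of ΔCTCF (3.67) lay 351 bp upstream. MAZ had 7.35 in WT and 6.27 in ΔCTCF, with summits 264 and 244 bp upstream of the start. RAD21 was thus called in all 4 conditions here, those without a CTCF peak included. The lack of a MAZ peak in the knockout conditions says nothing particular about this site, since those MAZ lists hold 33 peaks each.
Elsewhere in the region RAD21 was called once, in ΔCTCF, in an annotated intron of Stag1 (4.69), 37.3 kb upstream of the nearest Stag1 start used here and 1137 bp upstream of the pseudogene Gm47803. Farther into the gene, CTCF was called in introns without RAD21. It was called 266.9 kb from the start in WT (10.58) and ΔMAZ (6.53), and 273.7 kb from it in WT only (8.15).

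Stag2 (chrX:42149317-42277185, plus strand) encodes the other form of that subunit. CTCF at its promoter had a fold enrichment of 23.30 in WT and 27.70 in ΔMAZ, with summits 77 and 71 bp upstream of the start. RAD21 had 6.96 in WT and 16.60 in ΔMAZ. Neither protein was called there after auxin, in contrast to Stag1. A weak MAZ peak (4.50) was called in WT, 438 bp upstream of a second Stag2 start site and 82 bp upstream of the start of Gm37564, an unclassified transcript on the other strand, and none was called in ΔCTCF.

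Nipbl (chr15:8290617-8444463, minus strand) encodes the loader. It was the only gene besides Smc1a without a MAZ peak. CTCF was called 876 bp upstream of its start in WT (5.99) and 969 bp upstream in ΔMAZ (11.08), without RAD21. A CTCF peak in an intron of Nipbl (5.33) was called in WT only. A stronger CTCF site 6.8 kb upstream (15.55 in WT and 12.92 in ΔMAZ) also held RAD21, with 4.42 in WT, 3.10 in ΔCTCF and 6.06 in ΔMAZ. These RAD21 values lay low in their lists, above 3.11%, 2.76% and 21.8% of the peaks.

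Wapl (chr14:34673928-34747983, plus strand) encodes the factor that releases cohesin. Its region held a MAZ peak at the start site in WT (4.1) and in ΔCTCF (4.15) and nothing else.

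Pds5a (chr5:65605721-65698273, minus strand) and Pds5b (chr5:150673739-150810690, plus strand) encode the paired regulators PDS5A and PDS5B. At Pds5a every peak was called in WT only: CTCF 842 bp into the gene (6.66), MAZ 145 bp upstream of the start (6.14) and RAD21 8.2 kb upstream (5.65), apart from each other.
At the Pds5b start, by contrast, CTCF, MAZ and RAD21 were called on top of each other in all 10 lists other than the knockout MAZ lists. CTCF had a fold enrichment of 40.66 in WT and 10.81 in ΔCTCF, with 24.18 in ΔMAZ and 8.49 in ΔCTCF/ΔMAZ, from pileups of 62, 14, 35 and 13 reads. The WT value was higher than 98.8% of the list. This is the site of the core printed first above.
RAD21 at Pds5b had 31.85 in WT and 21.40 in ΔCTCF, with 33.29 in ΔMAZ and 19.20 in ΔCTCF/ΔMAZ, from 76, 95, 90 and 43 reads. In each of the 4 libraries this was higher than at least 95.3% of all RAD21 peaks. MAZ had 6.68 in WT and 4.98 in ΔCTCF.
A second Pds5b site, 7.8 kb upstream and between 249 and 288 bp upstream of a start site of N4bp2l2, within an intron of that gene, held both proteins without auxin only. CTCF had 13.32 in WT and 14.54 in ΔMAZ there and RAD21 7.17 and 7.33, and no peak of either was called in ΔCTCF or ΔCTCF/ΔMAZ.

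**Figure D2:**
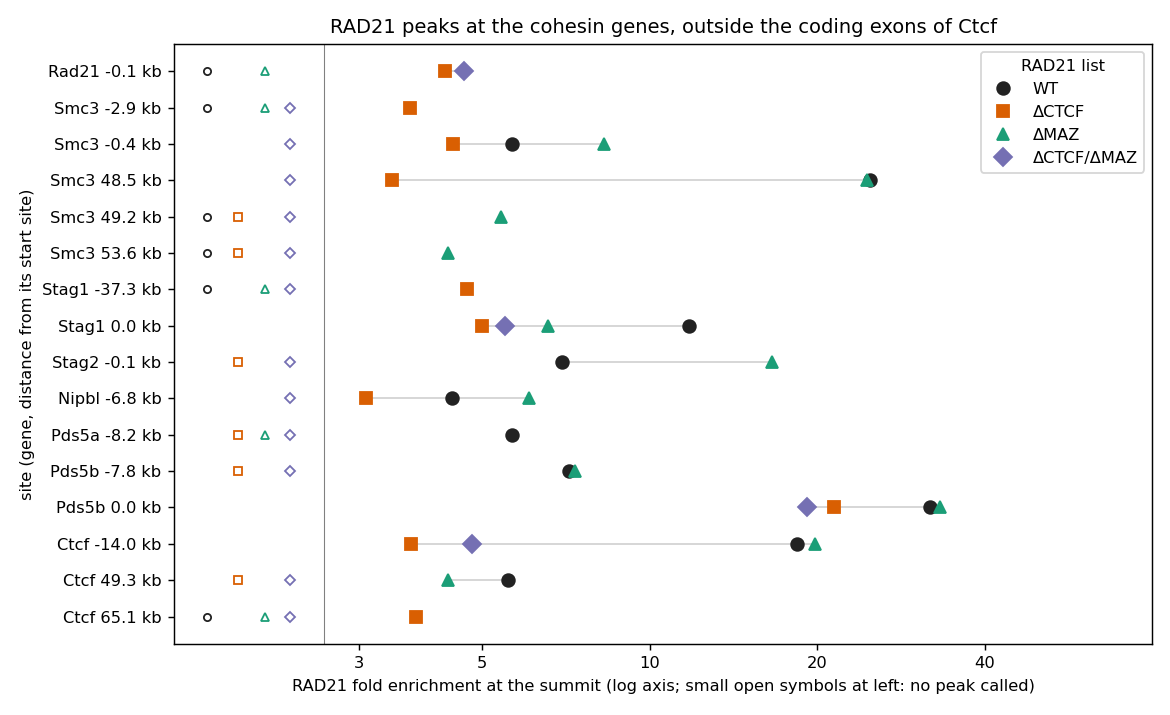
Fold enrichment of RAD21 (log axis) at each of the 16 sites outside the coding exons of Ctcf that held a RAD21 peak, by gene and distance from its start, in the 4 conditions, with small open symbols where no peak was called. Peaks at the Pds5b start stayed near 20 or above in all 4 libraries, whereas the sites downstream of Smc3 and upstream of Ctcf fell from above 18 without auxin to below 5 with it, or had no peak.

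Over these 16 sites RAD21 was called in all 4 conditions at 3, those at the starts of Stag1 and Pds5b and the site upstream of Ctcf. It was called in WT, ΔCTCF and ΔMAZ at 3 more and in WT and ΔMAZ at 3. At 1 site, the Rad21 promoter, it was called in both auxin conditions only, at 3 in ΔCTCF only, at 2 in ΔMAZ only and at 1 in WT only. The same counts over all sites of the series are not given, so these are not read as particular to the genes.

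Ctcf (chr8:105636568-105682922, plus strand) encodes the barrier, and here the tagged protein itself. Its promoter held MAZ alone, with a fold enrichment of 10.84 in WT and 7.74 in ΔCTCF, the former above 97.1% of the list. The site 14 kb upstream, in an intron of Agrp, held CTCF with 22.74 in WT, 8.81 in ΔCTCF and 24.55 in ΔMAZ. RAD21 there had 18.42 in WT and 3.72 in ΔCTCF, and 19.84 in ΔMAZ and 4.80 in ΔCTCF/ΔMAZ.
Other sites outside the exons were a CTCF site in intron 2 (11.99 in WT and 6.92 in ΔMAZ), a site downstream of the gene with CTCF (9.33 and 8.90) and RAD21 (5.56 and 4.35) without auxin, a MAZ site in Carmil2 (5.35 in WT and 8.33 in ΔCTCF) and a RAD21 peak of ΔCTCF at the start of Pard6a (3.80).

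Most peaks of the Ctcf region lay in its coding exons. Exons 3 to 12 hold coding bases, 10 exons in all. Over the 12 lists, 61 peaks had their summit between the first and the last coding base, and all 61 summits lay in a coding exon, although coding bases make up 12.4% of that span (2208 of 17854 bp). No summit lay in an intron there, in the 3′ UTR of 1306 bp or in the noncoding exons 1 and 2. The peaks reached past the end of their exon by a median of 54.0 bp and by at most 142 bp.

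**Figure D3:**
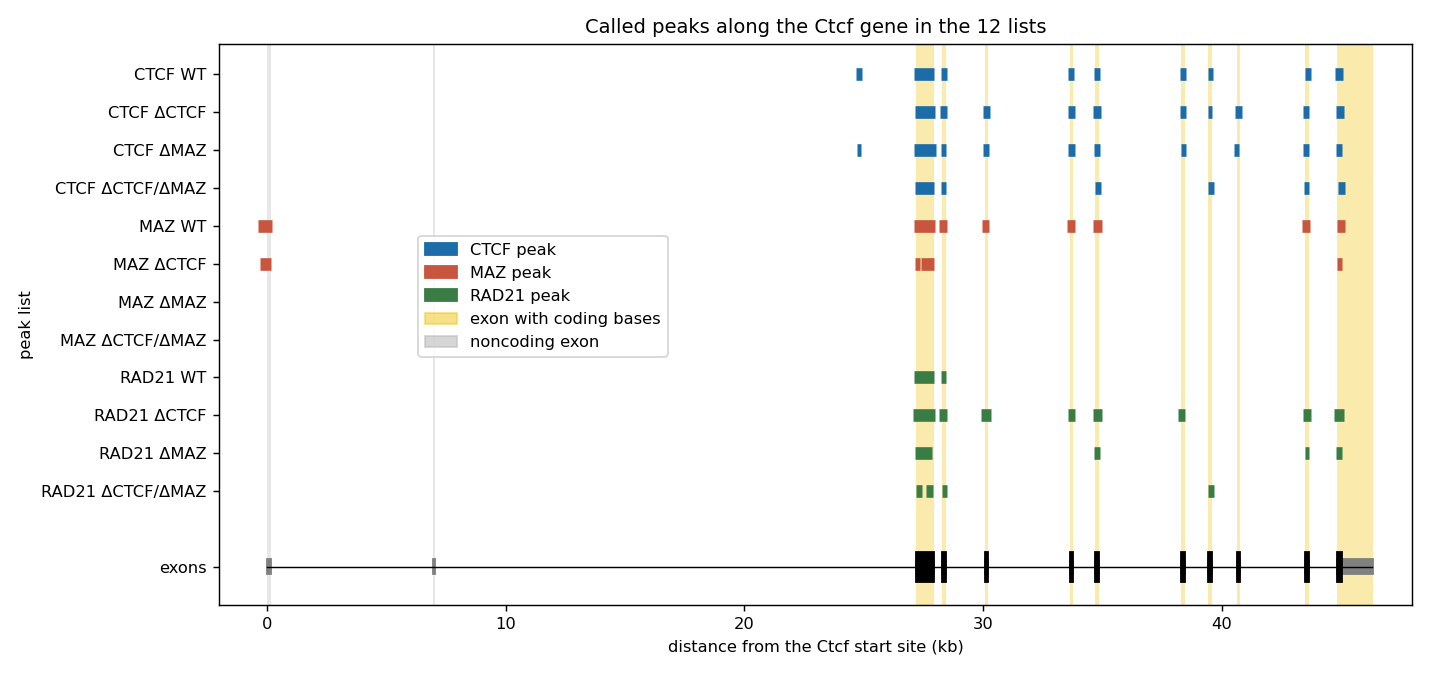
Called peaks of the 12 lists (rows) along the Ctcf gene, by distance from the start site in kb, with the exons in the lowest row (tall black boxes: coding bases, low grey boxes: noncoding bases). From exon 3 on, the peaks of all 3 antibodies stand over coding exons, and no summit lies over the 3′ UTR.

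CTCF summits lay in 8 of the 10 coding exons in WT and in all 10 in ΔCTCF, and in 9 in ΔMAZ and 6 in ΔCTCF/ΔMAZ. MAZ summits lay in 7 in WT, 2 in ΔCTCF and 0 in the knockout lists, which hold 33 peaks each. RAD21 summits lay in 2 exons in WT and 8 in ΔCTCF, and in 4 in ΔMAZ and 3 in ΔCTCF/ΔMAZ. The exons shared by most lists were exon 3, which has the most coding bases, with 10 lists, and exons 4 and 12 with 8 each.
Exon 3 held the highest fold enrichment of all coding exons in each of the 10 lists that had exon peaks. CTCF there had 13.32 in WT and 17.03 in ΔCTCF, and 17.31 in ΔMAZ and 15.69 in ΔCTCF/ΔMAZ. RAD21 had 8.43, 9.05, 8.66 and 6.59 in the same order, and MAZ 10.64 in WT and 6.19 in ΔCTCF. The CTCF peaks over these exons were thus no fewer in ΔCTCF than in WT, unlike those elsewhere. All 8 exon peaks of CTCF WT were called in ΔCTCF (100%, exact binomial 95% interval 63.1 to 100), against 1 of the 3 others of the region and 8.83% of the whole list. In the Maz knockout clone 5 of the 9 exon peaks of ΔMAZ were called in ΔCTCF/ΔMAZ (55.6%, 21.2 to 86.3), against 0 of the 3 others and 9.72% of the list. The exons are parts of the same gene and their peaks need not be independent, so these intervals can be too narrow.
The median fold enrichment of the exon peaks of CTCF was 8.80 (WT), 9.30 (ΔCTCF), 8.17 (ΔMAZ) and 7.56 (ΔCTCF/ΔMAZ), with median pileups of 14, 13, 15 and 15 reads.

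Coding exons held a small share of the peaks in 10 of the 12 lists. Of all CTCF peaks, 2.18% (WT), 2.18% (ΔCTCF), 2.14% (ΔMAZ) and 1.91% (ΔCTCF/ΔMAZ) had the summit in a coding exon of any gene. For MAZ the share was 2.94% (WT) and 3.82% (ΔCTCF), and for RAD21 it was 1.98% (WT), 3.00% (ΔCTCF), 2.26% (ΔMAZ) and 2.92% (ΔCTCF/ΔMAZ). The knockout MAZ lists were the exception, with 8 of 33 peaks each (24.2%) in coding exons, none of them of Ctcf. Among the 17102 genes with at least 3 coding exons, Ctcf was the only one with summits in 3 or more of them in the 4 CTCF lists, in MAZ WT and in RAD21 ΔCTCF and ΔCTCF/ΔMAZ. In RAD21 ΔMAZ it shared this with Cul9, which had 3, and in MAZ ΔCTCF and RAD21 WT no gene had as many. In both knockout MAZ lists the gene model Gm10800 had summits in 4 coding exons and Ctcf in 0.
Neither the CTCF core nor GGGAGGG was present within 100 bp of any of the 61 exon summits. Nothing is drawn from this about the proteins. The lists hold no reads, so the fragments behind these peaks could not be examined, and a list of an input library was not used here. Fragments of the Ctcf gene itself therefore cannot be told apart from fragments of Ctcf coding sequence without introns, such as a cDNA construct or plasmid, that were placed on the exons by the alignment. The exon peaks of all 3 antibodies are given as entries of the lists and are not read as binding at the gene, and the shares below are also given without them or without Ctcf.

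Depth was examined for the RAD21 peaks of ΔCTCF, the deepest RAD21 library, by scaling pileup and background down. Of the 8 RAD21 exon peaks of ΔCTCF, 6 were not called in WT, and all 6 would still pass the WT limit after scaling to the WT depth. Of the 6 exon peaks not called in ΔCTCF/ΔMAZ, 5 would pass at that depth. Of the 4 RAD21 peaks of ΔCTCF at the other 9 genes that were not called in WT, 2 would pass. Of their 6 not called in ΔCTCF/ΔMAZ, 2 would pass at that depth. The Nipbl peak of ΔCTCF would not pass the WT limit (a scaled −log10 p of 3.10 against 4.03), although it was called in WT. The peaks scaled were chosen because they were called in ΔCTCF, and the scaling leaves out counting error. The same counts over all RAD21 peaks of ΔCTCF are not given, so nothing is drawn from the scaling about depth.

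The peaks called in another condition were then counted. Of the 12 RAD21 peaks of WT, 8 were called in ΔCTCF (66.7%, exact binomial 95% interval 34.9 to 90.1), beside 38.9% of the whole list, which lies within the interval. Without Ctcf the count was 5 of 8 (62.5%). In ΔMAZ 10 of the 12 were called (83.3%, 51.6 to 97.9), and 9 of 10 without the exon peaks (90.0%), beside 83.5% of the whole list. The intervals cover counting error over these peaks only and treat peaks of the same gene as independent, which they need not be.
Among the 15 RAD21 peaks of the untreated knockout clone, 4 were called in ΔCTCF/ΔMAZ (26.7%, 7.79 to 55.1), beside 22.4% of the list. They stood at Stag1, at Pds5b and in the Ctcf region, and 3 of 11 (27.3%) remained without the exon peaks.
Of the 19 RAD21 peaks of ΔCTCF, 6 were called in ΔCTCF/ΔMAZ (31.6%, 12.6 to 56.6), beside 29.5%, and 8 in WT (42.1%, 20.3 to 66.5), beside 44.1%. At the 9 genes other than Ctcf these were 3 of 9 and 5 of 9. None of these RAD21 shares stood apart from its list beyond counting error.

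After auxin, the CTCF shares of the 10 genes stood above those of the lists when the exon peaks of Ctcf were counted. The exon peaks lie in the same gene and need not be independent, so intervals that include them can be too narrow. Of the 24 CTCF peaks of WT, 10 were called in ΔCTCF (41.7%, 22.1 to 63.4), beside 8.83% of the list. Without the exon peaks the count was 2 of 16 (12.5%, 1.55 to 38.3), namely the Pds5b promoter and the site upstream of Ctcf.
In the Maz knockout clone, 6 of the 21 CTCF peaks of ΔMAZ were called after auxin (28.6%, 11.3 to 52.2), beside 9.72% of the list. Without the exon peaks 1 of 12 was (8.33%, 0.211 to 38.5), that at Pds5b. Of the 24 peaks of WT, 19 were called in ΔMAZ (79.2%, 57.8 to 92.9), and 12 of 16 without the exon peaks (75.0%), beside 85.5%.
Of the 16 MAZ peaks of WT, 8 were called in ΔCTCF (50.0%, 24.7 to 75.3), and 6 of 9 without the exon peaks (66.7%), beside 66.3%. Among peaks that reach a −log10 q of 5 it was 4 of 15 (26.7%). The list share of 66.3% is for all peaks, and that at this limit is not given. In reverse, 9 of the 11 MAZ peaks of ΔCTCF were called in WT (81.8%, 48.2 to 97.7), and 6 of 8 without the exon peaks (75.0%), beside 61.6%. With a reciprocal overlap of 50% it was 6 of 11 (54.5%). The list share of 61.6% is for an overlap of at least 1 bp, and that at the stricter overlap is not given.

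**Figure D4:**
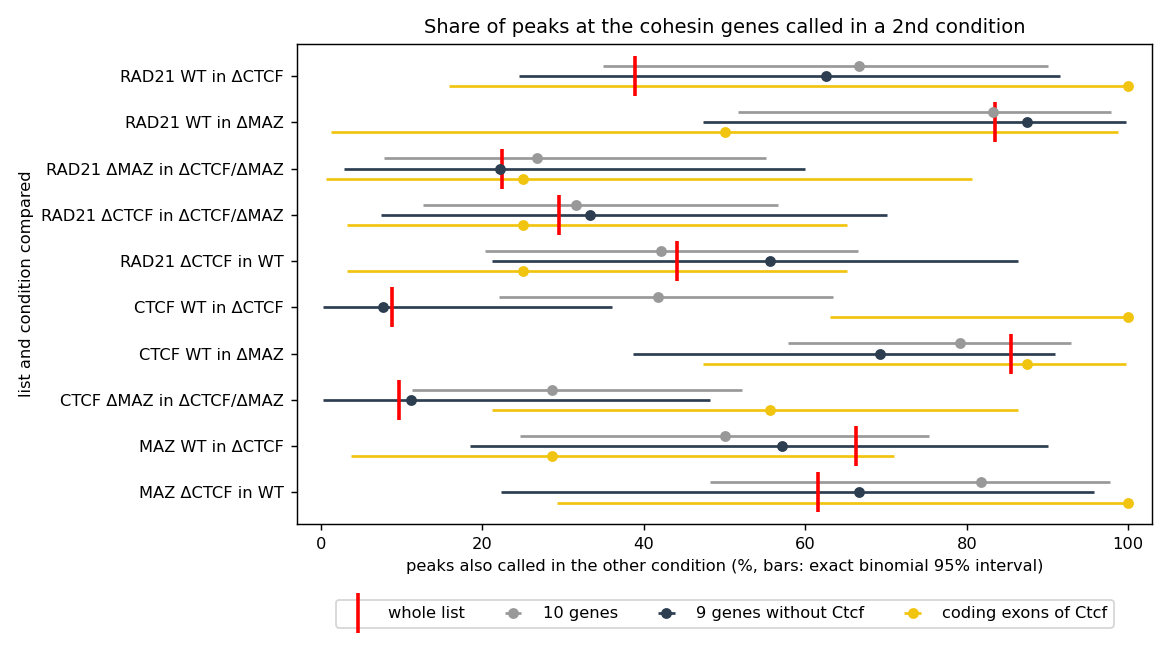
Percent of the peaks of a list that were also called in another condition, for the 10 genes, for the 9 genes without Ctcf and for the coding exons of Ctcf (points, with exact binomial 95% intervals) and for the whole list (red marks). For CTCF after auxin the 9 genes lie at 7.69% and 11.1%, close to the whole lists, and the Ctcf exons at 100% and 55.6%. The exons are parts of the same gene, so their peaks need not be independent.

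Overlap between peaks of different proteins, within a condition or across conditions as named, was read in the same way. Of the 12 RAD21 peaks of WT, 11 overlapped a CTCF peak of WT (91.7%, 61.5 to 99.8), beside 86.0% of the list. The exception was the site upstream of Pds5a, and 9 of 10 overlapped without the exon peaks (90.0%). In ΔMAZ 13 of 15 RAD21 peaks overlapped a CTCF peak of ΔMAZ (86.7%, 59.5 to 98.3), and 9 of 11 without the exon peaks (81.8%), beside 83.3%.
Of the 19 RAD21 peaks of ΔCTCF, 13 overlapped a place with a CTCF peak in WT (68.4%, 43.4 to 87.4), beside 41.1%, and 6 of 11 did without the exon peaks (54.5%, 23.4 to 83.3).
With MAZ peaks of ΔCTCF, 6 of the 19 overlapped (31.6%, 12.6 to 56.6), beside 11.9%, and 4 of 11 without the exon peaks (36.4%, 10.9 to 69.2). Among peaks of either list that reach a −log10 q of 5, the count was 2 of 12 (16.7%). The list share of 11.9% is for all peaks, and that at this limit is not given. The RAD21 peaks of ΔCTCF/ΔMAZ lay over MAZ peaks of ΔCTCF in 5 of 8 cases (62.5%, 24.5 to 91.5), beside 10.0% of the list. Without the exon peaks these were 3 of 4 (75.0%, 19.4 to 99.4), the promoters of Rad21, Stag1 and Pds5b. MAZ was not called there in ΔCTCF/ΔMAZ itself, whose MAZ list holds 33 peaks in all.
Of the 16 MAZ peaks of WT, 8 overlapped a CTCF peak of WT (50.0%, 24.7 to 75.3), beside 7.68%, and 2 of 9 did without the exon peaks (22.2%, 2.81 to 60.0), at Stag1 and Pds5b.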

How the data were processed

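The 12 peak lists came from 12 of the 20 samples, and the other 8 samples were not analysed here. The authors aligned reads to mm10 using Bowtie 2 and made a narrow peak list per library with MACS, in the column layout of MACS 2 (the release is stated ambiguously). Use of an input library is not given in the sources used here. The Drosophila spike-in did not scale the lists.

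The deposited score is 10 times the −log10 q and was not used. Fold enrichment, as deposited, is the ratio of pileup plus 1 to background plus 1. The deposited −log10 p and −log10 q describe a peak in its own library. Pileup and background were solved from fold and −log10 p, and whole pileups matched within 0.001 for all 136043 peaks. Depth is the lowest background over the smallest peak width.

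Genes were taken from GENCODE vM21 (basic set). A peak counted as called when it overlapped by at least 1 bp, which differed from bedtools 2.31.1 for 0 peaks over 16 pairs of lists. The functions were tested on simulated data. Python 3.11.15 with numpy 2.4.6 and scipy 1.17.1 was used. With 1 list per group no test and no p-value was computed, and shares have exact (Clopper-Pearson) 95% intervals. All 10 genes were named, with each promoter site, the strongest RAD21 site of WT and of ΔCTCF without a WT peak, and each RAD21 site of ΔCTCF/ΔMAZ, and remaining sites were added after their values were seen. The genes and lists were chosen with earlier results of these data known. Alternatives were flanks of 10 kb, a −log10 q of at least 5, other overlaps and promoter distances, the start of the gene record only, scaled depth, and leaving out the exon peaks of Ctcf.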

Additional observations from a re-analysis of the deposited data

Results flagged for a closer look

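In the Smc3 region the number of RAD21 peaks changed by 1 with auxin in the parental line and by -4 in the Maz knockout clone, opposite directions in single libraries. The change in the parental line rests on the weak ΔCTCF peak upstream of the gene (3.71). In checks chosen after seeing the data, it was 0 with the ΔCTCF peaks scaled to the depth of WT, and with a −log10 q of at least 5 the changes were -1 and -3, so the directions were then not opposite. In the Ctcf region it changed by 6 in the parental line and by -1 in the Maz knockout clone. Outside the coding exons of Ctcf the change was 0 (2 peaks in WT and 2 in ΔCTCF) in the parental line and -1 (2 and 1) in the knockout clone, so the opposite directions rest on the exon peaks. Neither difference was tested, since there was 1 list per condition, and the RAD21 ΔCTCF library was 2.18 times as deep as that of WT by the depth index. The part of depth in these differences was not tested beyond the scaling given above. In the Ctcf region 8 of the 10 RAD21 peaks of ΔCTCF lay in coding exons of the gene.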

How the results depend on the processing

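No paired analysis was possible because each antibody and condition has 1 list and no comparison rests on a test. Of 178 values under alternatives for 40 results, 165 stayed within the limits set for a count or an interval and 13 moved. Of the former, 2 shares still changed by over 1.5 times and 1 by that factor. With a −log10 q of at least 5, the RAD21 peaks of ΔCTCF over MAZ peaks went from 31.6% to 16.7% and the MAZ peaks of WT called in ΔCTCF from 50.0% to 26.7%, and with a reciprocal overlap of 50% the MAZ peaks of ΔCTCF called in WT went from 81.8% to 54.5%. Shares of the whole lists under these alternatives are not given. Leaving out the peaks in the coding exons of Ctcf, a choice made after seeing the data, left 2 (ΔCTCF), 12 (ΔMAZ) and 1 (ΔCTCF/ΔMAZ) CTCF peaks, 9 MAZ peaks in WT, and 11 RAD21 peaks in ΔCTCF and 4 in ΔCTCF/ΔMAZ. It also brought the CTCF peaks of WT called in ΔCTCF to 12.5%, those of ΔMAZ called in ΔCTCF/ΔMAZ to 8.33%, and the MAZ peaks of WT that overlap CTCF to 22.2%. With a −log10 q of at least 5 there were 5 MAZ peaks in ΔCTCF, at 3 promoters, and 12 RAD21 peaks in ΔCTCF and 5 in ΔCTCF/ΔMAZ, fewer by construction. Weak peaks thus carry part of the MAZ and RAD21 counts after auxin, among them the RAD21 peaks at the Rad21 promoter, whose −log10 q was 4.99 and 4.28. With 1 list per group, differences between lists can come from depth or from the library, which cannot be told apart from the condition.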
